A study of Mus musculus with 18 samples.

Results

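Foxp3, Ikzf2, Ikzf4, Gpr83, Nrp1 and Capg are 6 genes used to recognise regulatory T cells (TR), and they were taken by symbol from the 14011 genes of the normalized expression table. All 6 were found, had at least 151 counts in every library, and passed the filter on low counts. The libraries came from 3 littermate C57BL/6 mice, numbered 84, 86 and 87, that carry an Id3-GFP reporter for the inhibitor of DNA binding Id3 and a Foxp3-mRFP reporter for the TR factor Foxp3. Each mouse gave 3 sorted populations of CD4+ T cells from spleen and 3 from peripheral lymph node, so there were 6 groups of 3 libraries with 500 sorted cells each. Central TR (Id3+ cTR) were CD62L-high and CD44-low, effector TR with the Id3 reporter (Id3+ eTR) were CD62L-low and CD44-high, and effector TR without it (Id3- eTR) carry no CD44 or CD62L gate in their label. No agent or deletion was given, all groups share both reporters, and the labels state neither age nor sex. The same 3 animals supply every group, so a library is 1 mouse's cells of that population and tissue, and the populations are gates on reporter and surface levels. The series title describes differentiation of tissue-resident TR in steps marked by Id3, and the comparisons ask how the populations differ within each tissue and between the tissues.

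TR restrain other lymphocytes, and the lineage depends on the X-linked forkhead factor Foxp3. Central TR recirculate through lymphoid organs, and effector TR have responded to antigen and take on a program for life in tissues. Helios (Ikzf2) and Eos (Ikzf4) are zinc finger factors of the Ikaros family that work with Foxp3, Helios in stabilising the lineage and Eos in repressing genes that Foxp3 keeps silent. Gpr83 is a G protein-coupled receptor for a neuropeptide, Nrp1 (neuropilin 1) is a co-receptor for semaphorins and vascular endothelial growth factor that is high on mouse TR of thymic origin, and Capg is a gelsolin-like protein that caps the barbed ends of actin filaments. Id3 binds E proteins and keeps them from DNA, and E proteins recognise E boxes, short sequences of the form CANNTG.

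The promoters of Gpr83 and Nrp1 are shown because the transcripts of these genes moved in opposite directions between the populations, and that of Foxp3 because it is the reporter gene of the sort. Each is the 250 bases before a RefSeq start site on the plus strand of GRCm38.p6, in lower case with E boxes (CANNTG) in capitals. RefSeq entries were at hand for 4 of the 6 genes. The build of the expression files is not known from the sources at hand, and these coordinates are RefSeq's.
Gpr83, chr9:14859960-14860209: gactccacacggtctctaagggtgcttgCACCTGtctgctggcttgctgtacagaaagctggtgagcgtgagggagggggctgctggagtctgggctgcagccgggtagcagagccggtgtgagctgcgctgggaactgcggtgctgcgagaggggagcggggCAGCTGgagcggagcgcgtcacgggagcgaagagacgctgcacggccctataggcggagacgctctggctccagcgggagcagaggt
Nrp1, chr8:128358823-128359072: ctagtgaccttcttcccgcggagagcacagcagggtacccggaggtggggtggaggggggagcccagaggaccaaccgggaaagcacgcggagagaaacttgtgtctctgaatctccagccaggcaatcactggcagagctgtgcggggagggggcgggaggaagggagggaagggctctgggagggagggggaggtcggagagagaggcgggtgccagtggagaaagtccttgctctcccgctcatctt
Foxp3 start 1, chrX:7579426-7579675: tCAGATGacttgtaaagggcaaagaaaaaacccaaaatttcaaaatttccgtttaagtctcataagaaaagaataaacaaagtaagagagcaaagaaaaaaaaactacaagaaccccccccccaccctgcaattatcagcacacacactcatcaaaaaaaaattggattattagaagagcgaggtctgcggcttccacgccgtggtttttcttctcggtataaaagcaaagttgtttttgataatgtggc
The Gpr83 window held 2 E boxes, CACCTG 222 bases and CAGCTG 87 bases before the start. The Nrp1 window held 0, which says only that these letters are not in this window. Foxp3 had 1 E box (CAGATG) before start 1 and 2 (CAGCTG and CAACTG) before its other listed start at chrX:7580233-7580482. The Capg window, chr6:72549397-72549646, held CAGGTG 2 times. Across 32851 RefSeq promoter windows of 250 bases, 66.2% held CANNTG, so a match is common. The narrower form CAGNTG, a subset of CANNTG searched on both strands like every motif here, was in 44.8% of the windows and accounted for all 7 matches in the 5 windows of these genes. A forkhead motif (TGTTTAC, 3.2% of all windows), a Runx motif (TGTGGT, 14%) and an Ets motif (CCGGAA, 12%) had 0 matches in the same windows.

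Library totals ran from 1600782 to 3153325 counts. Spleen Id3+ cTR of mice 84 and 87 were the shallowest, and spleen Id3+ eTR of mouse 84 stood apart from its partners at 20.6 and 20.8 times the counting variance, against 4.16 to 7.76 for every other pair within a group. These 3 spleen libraries are left out in an alternative. Its value stands beside some of the results that it moved, and not beside all of them. Id3 followed its reporter, with group means of 248 to 296 CPM (counts scaled to a fixed library total) in the 4 Id3+ groups and 58.5 and 71.4 in Id3- eTR. The 5 T cell markers Cd3d, Cd3e, Cd3g, Cd4 and Lck and the TR markers Foxp3, Il2ra, Ctla4, Ikzf2 and Izumo1r had counts in all groups. Of 5 endothelial and stromal markers, summed levels were at most 2.14 CPM. Summed markers of conventional CD4 T cells (6 genes) ran, for central TR, Id3+ eTR and Id3- eTR in turn, from 103 to 122, 129 to 178 and 243 to 346 CPM in spleen and from 86.6 to 103, 206 to 273 and 172 to 232 CPM in lymph node. Of the 4 tested, Ifng and Il4 were called higher in both effector populations than in Id3+ cTR of each tissue, and Cd40lg in lymph node Id3+ eTR. Those of CD8 T and NK cells (6 genes) ran from 74.3 to 170.4, 103 to 134 and 151 to 210.5 in spleen and from 59.9 to 104, 152 to 238 and 179 to 219.6 in lymph node, with Ncr1 at 0 counts in all 6 groups and Nkg7 called higher than in Id3+ cTR in Id3- eTR of each tissue and in lymph node Id3+ eTR. Those of B cells lay at 55.9 to 219 in every group. Erythroid and platelet markers (6 genes) summed, in the same order, to 114 to 192, 11.3 to 90.1 and 19.8 to 71.2 CPM in spleen and to at most 9.50 CPM in lymph node, with Alas2 called lower in spleen Id3- eTR than in spleen Id3+ cTR. The part of such cells in the values that follow was not tested.

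Between Id3- eTR and Id3+ cTR, 4 of the 6 genes changed in each tissue, and they were the same 4: Ikzf2, Nrp1 and Capg were higher in Id3- eTR and Gpr83 was lower. A gene is called changed at an adjusted p under 0.05 in edgeR's quasi-likelihood test over 12445 genes, and 12.3% of all genes were called in this comparison in spleen and 12.9% in lymph node. Between Id3+ eTR and Id3+ cTR, 1 of 6 was called in spleen (Nrp1; 4.32% of all genes) and 2 of 6 in lymph node (Nrp1 and Ikzf2; 5.66%). Between Id3- eTR and Id3+ eTR, 2 of 6 were called in spleen (Gpr83 lower, Capg higher; 3.28%) and 2 of 6 in lymph node (Gpr83 and Nrp1, both lower; 2.62%). Foxp3 and Ikzf4 were called in none of these 6 comparisons. The comparisons share libraries in pairs, so they do not count as independent of each other.

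**Figure D1:**
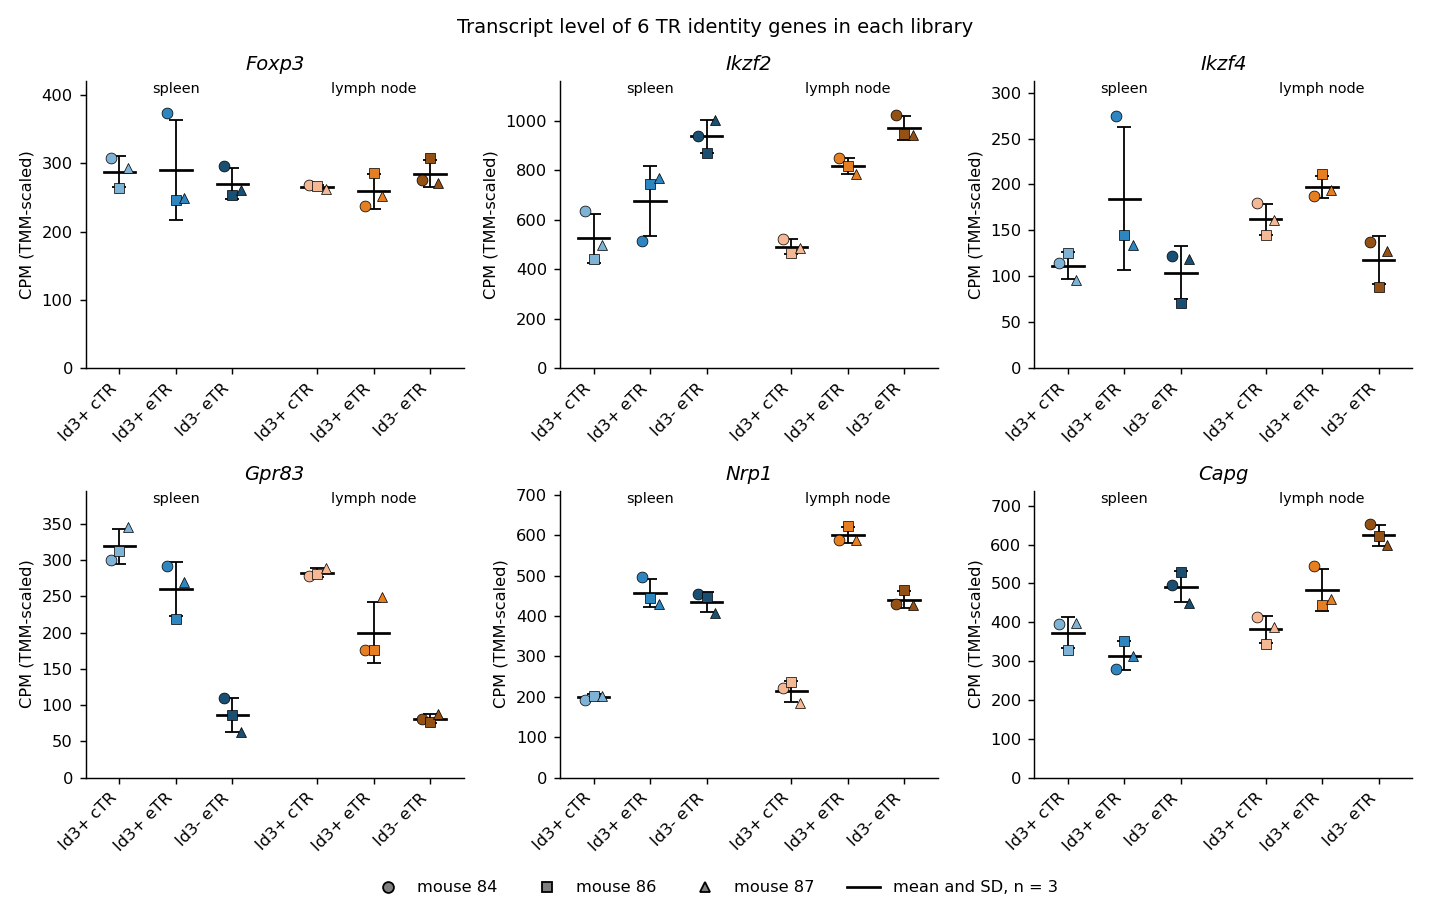
Level of each of the 6 genes in every library, in CPM on TMM-scaled totals, by tissue and population. Points are single mice, and bars give the mean and SD of 3. Gpr83 lies at 62.9 to 110 CPM in the Id3- eTR libraries and above 175 in all others, whereas Foxp3 lies between 237 and 374 CPM in all 18.

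Foxp3 differed little over the populations, and no difference passed the test. Its CPM in mice 84, 86 and 87 was 308, 263 and 293 in spleen Id3+ cTR, 374, 246 and 249 in spleen Id3+ eTR, and 296, 254 and 261 in spleen Id3- eTR. In lymph node the corresponding values were 268, 267 and 262, then 237, 286 and 252, then 276, 308 and 271. The ranges overlapped within each tissue except that the 3 lymph node Id3- eTR libraries lay just above the 3 Id3+ cTR libraries, and the highest value was that of the spleen Id3+ eTR library of mouse 84. The highest group mean was 1.12 times the lowest. Differences between populations ran from -0.10 to 0.14 on the log2 scale, with adjusted p of 0.733 to 0.98 in edgeR, and the 95% intervals of the 6 differences lay between -0.39 and 0.43. Without the 3 spleen libraries the spleen differences changed sign and stayed small. They were 0.04 for Id3- eTR over Id3+ cTR, -0.09 for Id3+ eTR over Id3+ cTR and 0.13 for Id3- eTR over Id3+ eTR. As every cell was sorted on the Foxp3 reporter, this describes the gate and is not a finding on Foxp3. In bulk libraries such as these, fewer cells with a transcript and less transcript per cell cannot be told apart.

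Helios rose from central to effector TR. Ikzf2 stood at 636, 443 and 499 CPM in spleen Id3+ cTR, at 512, 744 and 769.9 in spleen Id3+ eTR and at 938, 869 and 1004 in spleen Id3- eTR (mice 84, 86 and 87). In lymph node it stood at 524, 464 and 487, at 849, 817 and 783, and at 1025, 945 and 942 CPM in the same order. The 6 Id3- eTR libraries were all above the other libraries of their tissue, and the 3 lymph node groups did not overlap, whereas in spleen the Id3+ eTR library of mouse 84 fell among the Id3+ cTR libraries. From Id3+ cTR to Id3- eTR, Ikzf2 was 1.79-fold higher in spleen (log2 0.84 ± 0.14 SE, adjusted p = 0.000499) and 1.97-fold higher in lymph node (0.98 ± 0.14, adjusted p = 9.97e-05), in 3 of 3 mice each.

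Most of the lymph node rise in Ikzf2 was present in Id3+ eTR, at 0.73 ± 0.14 over Id3+ cTR (adjusted p = 0.00336). In that tissue Id3+ eTR stood 74.6% of the way from Id3+ cTR to Id3- eTR on the log2 scale (71.9% to 79.5% over the 3 mice). In spleen the share was 41.8%, with a range of -55.6% to 77.0% that spans opposite directions. There Ikzf2 in Id3+ eTR was 0.36 ± 0.14 above Id3+ cTR and not called (adjusted p = 0.15). Without the spleen Id3+ eTR library of mouse 84 the difference was 0.54 (adjusted p = 0.0174), and without all 3 spleen libraries that stood apart it was 0.77 (adjusted p = 0.00489). Id3- eTR exceeded Id3+ eTR by 0.47 ± 0.14 in the spleen (adjusted p = 0.0706) and 0.25 ± 0.14 in the lymph node (adjusted p = 0.473), in 3 of 3 mice in both tissues and without overlap. DESeq2 (adjusted p = 0.00672) and limma-voom (0.0173) called the spleen difference. It was 0.31 without the 3 spleen libraries (adjusted p = 0.0502) and 0.32 without Id3+ eTR of mouse 84 alone (adjusted p = 0.198).

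Eos was highest in Id3+ eTR, an order of groups unlike that of Helios. Ikzf4 was at 114, 125 and 95.6 CPM in spleen Id3+ cTR, at 274, 145 and 134 in spleen Id3+ eTR, and at 122, 71.1 and 119 in spleen Id3- eTR. In lymph node it was at 179.8, 146 and 161, at 188, 211 and 194, and at 137, 88.4 and 127. In both tissues Id3+ eTR was the highest group and overlapped with neither other population. The gap from Id3+ eTR to Id3- eTR was -0.82 ± 0.25 in the spleen (adjusted p = 0.0883) and -0.75 ± 0.25 in the lymph node (adjusted p = 0.153), in 3 of 3 mice each, so neither passed the threshold with edgeR. DESeq2 called the spleen gap (adjusted p = 0.031), as did edgeR without Id3+ eTR of mouse 87 (adjusted p = 0.042). Leaving out the mouse 84 library of spleen Id3+ eTR gave a gap of -0.41 (adjusted p = 0.43), and leaving out the 3 spleen libraries gave -0.42 (adjusted p = 0.444). The spleen difference of Ikzf4 between Id3+ eTR and Id3+ cTR was 0.72 ± 0.25 (adjusted p = 0.116). It was 0.32 without Id3+ eTR of mouse 84 (adjusted p = 0.554). Without the 3 spleen libraries, which leaves only the mouse 86 library of spleen Id3+ cTR, it was 0.16. In lymph node that difference was 0.29 ± 0.25 (adjusted p = 0.678).

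The mean of the spleen and lymph node differences was also tested in the same fit, a contrast added after these values were seen. Over both tissues Ikzf4 in Id3- eTR was lower than in Id3+ eTR by a log2 difference of -0.79 ± 0.18 (adjusted p = 0.0103). This average called 7.95% of all genes and 5 of the 6 members, with Foxp3 the exception. The average of Id3- eTR over Id3+ cTR called 22.7% of all genes and 4 of the 6. The Ikzf4 difference between the effector populations remained called in 19 of 19 alternatives, with adjusted p of 0.000523 to 0.0326 and a value of -0.58 without Id3+ eTR of mouse 84. The rise from Id3+ cTR to Id3+ eTR, 0.50 ± 0.18 over both tissues, was not called (adjusted p = 0.0868). Without the 3 spleen libraries this rise was 0.22. The spleen Id3+ eTR library of mouse 84 had the highest Ikzf4 of all 18, 0.65 above its group mean on the log2 scale, and the lowest Ikzf2 of its group.

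**Figure D2:**
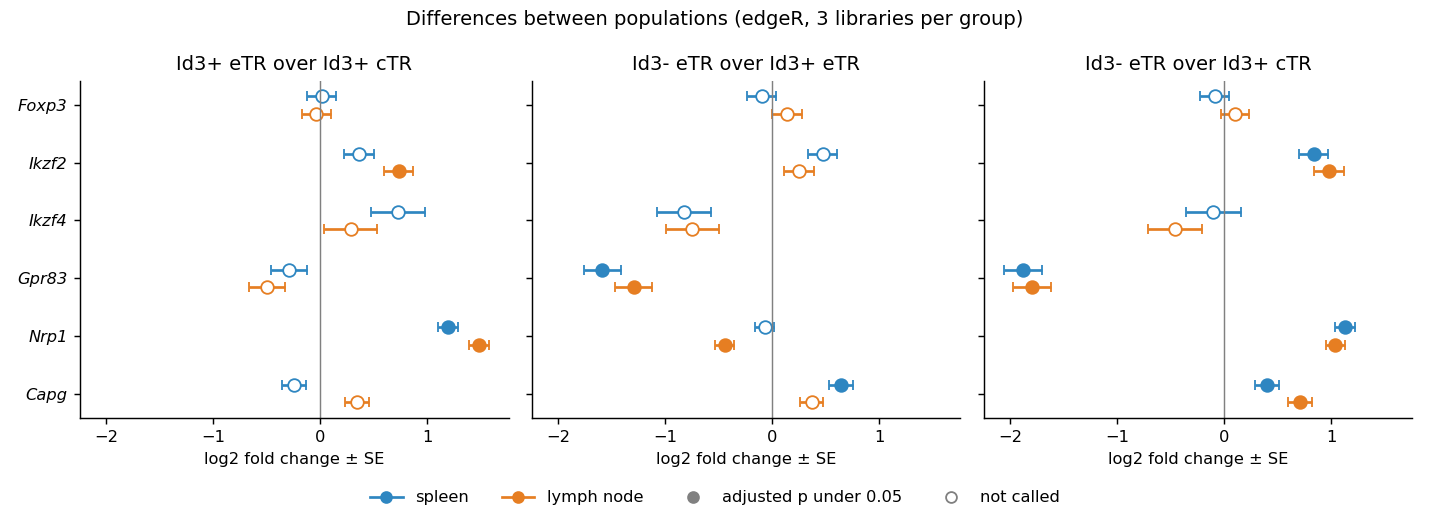
Log2 difference between populations for the 6 genes in edgeR, with 1 panel for each pair of populations, spleen and lymph node side by side, and bars of 1 standard error. Filled points passed the threshold of 0.05 on the adjusted p. Nrp1 shows its larger change between Id3+ cTR and Id3+ eTR, and in lymph node a smaller called fall from Id3+ eTR to Id3- eTR. Gpr83 shows its larger change between Id3+ eTR and Id3- eTR.

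The count ratio of Ikzf2 to Ikzf4 within a library needs no scaling between libraries, though it is not corrected for transcript length. It was 5.56, 3.54 and 5.22 in spleen Id3+ cTR, 1.87, 5.14 and 5.73 in spleen Id3+ eTR and 7.67, 12.2 and 8.48 in spleen Id3- eTR. In lymph node it was 2.91, 3.19 and 3.03, then 4.52, 3.87 and 4.05, then 7.48, 10.7 and 7.40. All 6 Id3- eTR libraries were above 7, and all 12 libraries with the Id3 reporter were below 6, so the populations with and without Id3 did not overlap. The lowest ratio was that of the spleen Id3+ eTR library of mouse 84.

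Among the 3 other Ikaros family genes, all tested, 1 changed in each tissue between Id3- eTR and Id3+ cTR. That comparison called 12.3% of all genes in spleen and 12.9% in lymph node. Ikzf1 (Ikaros) was lower in spleen Id3- eTR than in Id3+ cTR, at -0.65 ± 0.13 (adjusted p = 0.0032), and at -0.40 ± 0.13 in lymph node it was not called (adjusted p = 0.0549). Spleen Id3+ eTR was also called lower in Ikzf1 than spleen Id3+ cTR, a call lost with only the groups compared. Between the effector populations of spleen none of the 3 was called. Ikzf3 (Aiolos) was higher in lymph node Id3- eTR, at 1.45 ± 0.19 over Id3+ cTR (adjusted p = 4.64e-05) and 1.53 ± 0.19 over Id3+ eTR (adjusted p = 0.000149). In spleen Ikzf3 was 0.41 ± 0.19 above Id3+ cTR (adjusted p = 0.185). Ikzf5 was called in none of the 6 comparisons.

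Some genes that act on the Foxp3 locus changed between the populations. Of 20 such regulators tested, 2 were higher and 5 lower in Id3- eTR than in Id3+ cTR in spleen, and 2 were higher and 3 lower in lymph node. Their median difference was -0.09 in spleen and 0.01 in lymph node, against 0.00 over all genes tested in both. Of all genes, 12.3% were called in this comparison in spleen and 12.9% in lymph node. Bach2, a repressor that holds T cells in a resting state, was at -2.46 ± 0.18 in the spleen (adjusted p = 9.12e-08) and -3.16 ± 0.18 in the lymph node (adjusted p = 6.79e-09). Satb1, a chromatin organiser that acts at TR enhancers in the thymus, was at -2.76 ± 0.13 and -2.43 ± 0.13 (adjusted p = 9.06e-10 and 1.9e-09). Tet3, which oxidises methylated cytosine, was also lower in both tissues, and Runx3 and Nfatc2 were higher in both. Without the 3 spleen libraries 4 of the 20 were called in spleen. The spleen count was also 4 when only the mouse 84 library of Id3- eTR, or only the mouse 84 or 87 library of Id3+ cTR, was left out. The lymph node count was 3 rather than 5 when a mouse 86 or 87 library of Id3- eTR, or a mouse 84 or 86 library of Id3+ cTR, was left out.

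Of 12 partners of the Foxp3 protein tested, 3 were higher in Id3- eTR than in Id3+ cTR in each tissue. They were the oxygen-regulated factor subunit Hif1a, the zinc finger factor Gata3 and the calcineurin target Nfatc2. In spleen the deubiquitinase Usp7 was lower. With any 1 library left out, 2 to 4 were called in each tissue; the spleen count was 2 when the mouse 84 library of Id3- eTR, or the mouse 84 or 86 library of Id3+ cTR, was left out, and the lymph node count was 2 when a mouse 84 or 87 library of Id3- eTR, or a mouse 84 or 86 library of Id3+ cTR, was left out. The median of the 12 was 0.39 in spleen and 0.35 in lymph node, against 0.00 over all genes tested in both. The share of all genes called in this comparison was 12.3% in spleen and 12.9% in lymph node. Hif1a had group means of 175 and 398 CPM in spleen Id3+ cTR and Id3- eTR, and of 162 and 406 in lymph node. Nfatc2 stands among both the regulators and the partners.

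Gpr83 was the 1 gene of the 6 called lower in Id3- eTR than in Id3+ cTR, with the largest change of the 6. Its CPM in mice 84, 86 and 87 was 299.8, 312 and 346 in spleen Id3+ cTR, 291, 219 and 269 in spleen Id3+ eTR, and 110.4, 86.2 and 62.9 in spleen Id3- eTR. In lymph node the values were 278, 281 and 289.7, then 176, 176 and 249, then 80.6, 76.4 and 87.7. Id3- eTR was far below the other populations in both tissues, and in both Id3+ eTR lay between them without overlap. The fall from Id3+ cTR to Id3- eTR was -1.88 ± 0.18 in the spleen (adjusted p = 2.11e-06) and -1.79 ± 0.18 in the lymph node (adjusted p = 2.4e-06), to 0.271 and 0.288 of the Id3+ cTR level.

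Most of that fall lay between the effector populations. From Id3+ eTR to Id3- eTR Gpr83 fell by 1.59 ± 0.18 (log2) in the spleen (adjusted p = 5.25e-05) and by 1.30 ± 0.18 in the lymph node (adjusted p = 0.000328). Between Id3+ cTR and Id3+ eTR it differed by -0.29 ± 0.17 in the spleen (adjusted p = 0.356) and -0.50 ± 0.17 in the lymph node (adjusted p = 0.11), lower in 3 of 3 mice in both and not called in either. The lymph node step was called without the Id3+ eTR library of mouse 87 (-0.68, adjusted p = 0.0405). Averaged over both tissues it was -0.40 ± 0.12 (adjusted p = 0.0449; 9.84% of all genes called), a call that 7 of 19 alternatives kept. That average was -0.42 without the 3 spleen libraries. Id3+ eTR had covered 15.8% of the way from Id3+ cTR to Id3- eTR in spleen (2.81% to 27.4% over mice) and 28.9% in lymph node (12.8% to 37.0%).

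Transcripts of the ligand side of Gpr83 were scarcely detected. Pcsk1n, the precursor of a peptide ligand of Gpr83, and the convertase Pcsk1 did not pass the filter on low counts, and Pcsk1 had 0 counts in all 4 Id3+ groups, 31 in spleen Id3- eTR and 4 in lymph node Id3- eTR. Gpr171, a related receptor for another peptide of that precursor, rose where Gpr83 fell, by 0.97 ± 0.24 in spleen Id3- eTR over Id3+ cTR (adjusted p = 0.0117) and by 0.97 ± 0.23 in lymph node (adjusted p = 0.0104). Penk, the enkephalin precursor, rose by 2.63 ± 0.55 and 2.71 ± 0.54 (adjusted p = 0.00366 and 0.00262). In this comparison 12.3% of all genes were called in spleen and 12.9% in lymph node. Both genes tested in this group of 4 were thus higher in each tissue, and neither was called in spleen without the 3 libraries that stood apart. With 1 library left out, only 1 of the pair was called in spleen when it was the mouse 84 library of Id3+ cTR or the mouse 87 library of Id3- eTR, and in lymph node when it was the mouse 84 library of Id3+ cTR or the mouse 86 library of Id3- eTR.

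Nrp1 rose with the change from central to effector state. It was at 191, 203 and 203 CPM in spleen Id3+ cTR, at 497, 444 and 429 in spleen Id3+ eTR and at 454, 446 and 407 in spleen Id3- eTR. In lymph node it was at 221, 236 and 185, at 587, 624 and 589, and at 431, 464 and 427. Every effector library exceeded every central library by a wide gap, and in lymph node Id3+ eTR also lay above Id3- eTR without overlap. From Id3+ cTR to Id3+ eTR Nrp1 was 2.29-fold higher in spleen (1.20 ± 0.09, adjusted p = 1.16e-06) and 2.80-fold higher in lymph node (1.49 ± 0.09, adjusted p = 4.06e-08). Id3- eTR exceeded Id3+ cTR by 1.13 ± 0.09 (adjusted p = 3.99e-07) and 1.04 ± 0.09 (adjusted p = 6.6e-07).

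In lymph node, Nrp1 was lower in Id3- eTR than in Id3+ eTR, at -0.45 ± 0.09 (adjusted p = 0.00962). That call was lost without any of 3 libraries, with adjusted p of 0.0542 and 0.0534 for Id3- eTR of mouse 84 or mouse 87 left out and 0.0506 for Id3+ eTR of mouse 86. In spleen the same difference was -0.07 ± 0.09 (adjusted p = 0.767), and -0.005 without the 3 spleen libraries. The test of the difference between tissues gave -0.38 ± 0.13 and was not called (adjusted p = 0.599). Id3+ eTR thus stood at 106% of the way to Id3- eTR in spleen (99.6% to 111% over mice) and at 143% in lymph node (139% to 146%).

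Few other genes of the neuropilin pathway were measurable in these cells. Of 14 listed, 7 passed the filter, and Nrp2, the paralog of Nrp1, was at 0 counts in spleen Id3- eTR and at most 5.20 CPM in any group mean. Vegfa, a ligand, had at most 9 counts in a group. Sema4a, a semaphorin ligand of neuropilin 1 on TR, was lower in spleen Id3- eTR than in Id3+ cTR (-2.11 ± 0.58, adjusted p = 0.0227) and was not called in lymph node (-0.91 ± 0.55, adjusted p = 0.339). Over all genes, 12.3% were called in this comparison in spleen and 12.9% in lymph node. None of the 7 was called in the other 4 comparisons within a tissue with edgeR. On the average of the tissues the semaphorin receptor gene Plxnd1 was higher in Id3- eTR than in Id3+ eTR, at 3.10 ± 0.89 (adjusted p = 0.0418). It had 16 and 5 counts in all in spleen and lymph node Id3+ eTR, and no gene of the list was called in this comparison without the 3 spleen libraries or with any 1 of its libraries left out, except that 1 was called when it was the spleen mouse 86 or the lymph node mouse 84 library of Id3+ eTR. The Sema4a call was lost without the 3 spleen libraries.

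**Figure D3:**
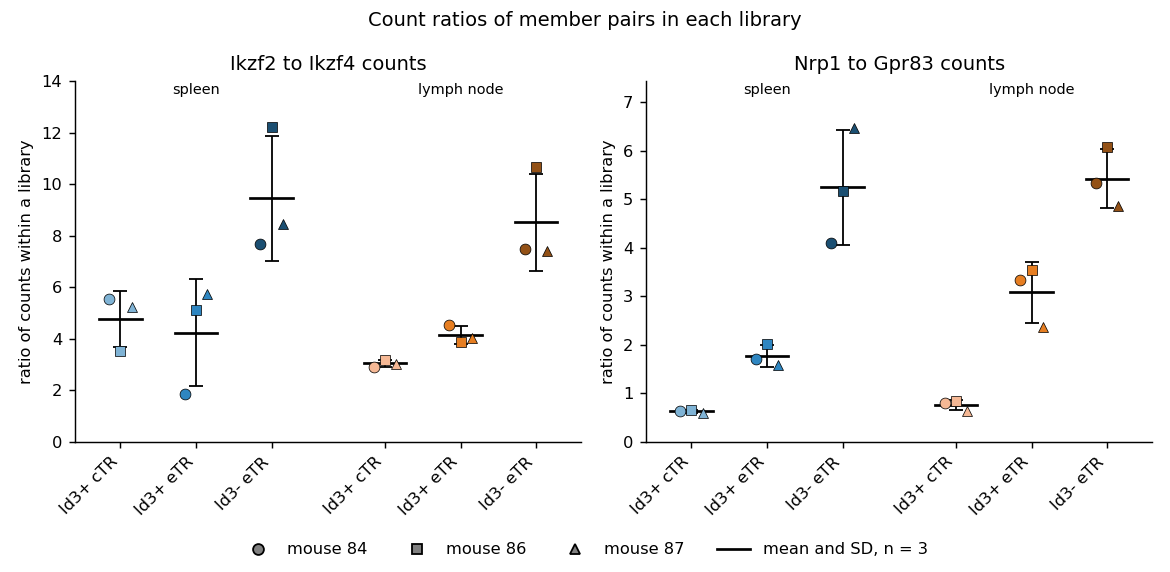
Count ratios within each library, Ikzf2 to Ikzf4 and Nrp1 to Gpr83, by tissue and population, with 1 point per mouse. Id3- eTR is the highest population for both ratios in both tissues, and the Nrp1 to Gpr83 ratio separates all 3 populations.

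The surface receptors were set against each other because they moved in opposite directions, so their ratio restates the values above within 1 library. In spleen, the mean count ratio of Nrp1 to Gpr83 was 0.625 ± 0.034 (SD, n = 3) for central TR, 1.77 ± 0.22 for Id3+ eTR and 5.25 ± 1.18 for Id3- eTR. In lymph node the means were 0.758 ± 0.105, 3.08 ± 0.63 and 5.43 ± 0.61. No library overlapped with another population of its tissue: the highest Id3+ cTR ratio was 0.840, the Id3+ eTR ratios ran from 1.59 to 3.54, and the lowest Id3- eTR ratio was 4.11.

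Capg was highest in Id3- eTR. Its CPM was 395, 328 and 397 in spleen Id3+ cTR, 279, 352 and 313 in spleen Id3+ eTR, and 495, 530.2 and 449 in spleen Id3- eTR. In lymph node it was 414, 344 and 387, then 546, 445 and 461, then 653, 621 and 599. Id3- eTR did not overlap with either other population in either tissue, whereas Id3+ eTR overlapped with Id3+ cTR in spleen and lay above it in lymph node. Against Id3+ cTR, Capg in Id3- eTR was 0.40 ± 0.11 higher in the spleen (adjusted p = 0.0262) and 0.71 ± 0.11 higher in the lymph node (adjusted p = 0.000281). The spleen call was lost without Id3- eTR of mouse 84 (adjusted p = 0.0554) or 86 (0.0972) and without Id3+ cTR of mouse 86 (0.0896).

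Between the effector populations Capg was 0.65 ± 0.11 higher in Id3- eTR of spleen (adjusted p = 0.00269) and 0.37 ± 0.11 higher in lymph node (adjusted p = 0.0982), the latter called with limma-voom (0.0298) and DESeq2 (0.0192). With the spread taken from the groups compared alone, the spleen adjusted p was 0.0563. Id3+ eTR differed from Id3+ cTR by -0.25 ± 0.11 in the spleen (adjusted p = 0.229) and by 0.34 ± 0.11 in the lymph node (adjusted p = 0.0915). Without the 3 spleen libraries the spleen difference was 0.02 (adjusted p = 1). The interaction, lymph node minus spleen, was 0.59 ± 0.16 and not called with edgeR (adjusted p = 0.36), and DESeq2 gave 0.60 (adjusted p = 0.0101). It rests in part on that spleen difference, and was 0.32 without the 3 spleen libraries (adjusted p = 0.947).

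Capg is abundant in myeloid cells, and markers of those cells moved with the populations as well. The summed level of 10 myeloid and dendritic cell markers ran from 137 to 264 CPM in spleen Id3+ cTR, 153 to 259.6 in spleen Id3+ eTR and 253 to 295 in spleen Id3- eTR. In lymph node it ran from 141 to 167, 216 to 446 and 331 to 365. Cst3, a gene of wide expression, made up 120.6 to 228 CPM of these sums. Of the 6 markers tested, Fcer1g and Tyrobp were called higher in Id3- eTR than in Id3+ cTR of both tissues, Cd68 also in spleen, and Spi1 and Cst3 also in lymph node. Over the 3 libraries of Id3- eTR, Csf1r had 26 counts in spleen and 0 in lymph node. Siglech had 16 and 8, and Adgre1 had 44 and 12. Id3+ eTR had 26 and 1 counts of Csf1r, 0 and 0 of Siglech, and 29 and 1 of Adgre1. Central TR had 2 and 0 counts of Csf1r, 0 and 0 of Siglech, and 0 and 2 of Adgre1. Lyz2 separated central from effector libraries in lymph node. Its highest central level there was 20.1 CPM, whereas the lowest effector levels were 53.3 CPM (Id3+) and 77.8 CPM (Id3-). The maximum, 201 CPM, was in a lymph node Id3+ eTR library. Spleen populations overlapped in Lyz2. The part of myeloid and dendritic cells in the Capg and Nrp1 values was not tested.

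Within each tissue, no other actin capper was called higher in Id3- eTR than in Id3+ cTR. Of 11 listed genes of the capping and gelsolin families, 9 were tested, and Twf2 (twinfilin 2), which binds actin monomers and barbed ends, was the 1 gene called between Id3- eTR and Id3+ cTR within a tissue. On the average of the tissues Flii, a gelsolin family member, was called too, at 0.50 ± 0.14 (adjusted p = 0.0138). Twf2 was lower, at -0.49 ± 0.09 in the spleen (adjusted p = 0.0012) and -0.48 ± 0.09 in the lymph node (adjusted p = 0.00133). The median of the 9 was 0.10 in spleen and 0.11 in lymph node, against 0.00 over all genes tested in both. The share of all genes called was 12.3% in spleen and 12.9% in lymph node. Between Id3+ eTR and Id3+ cTR, Twf2 was lower in lymph node and Flii higher in spleen (0.75 ± 0.20, adjusted p = 0.041), the latter lost without the 3 spleen libraries.

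Few differences of the 6 genes between the tissues passed the test. In 18 comparisons of lymph node with spleen, 1 was called with edgeR, and 4 had an unadjusted p under 0.05. That 1 was Capg in Id3+ eTR, 0.62 ± 0.11 higher in lymph node (adjusted p = 0.0304; 0.289% of all genes called). The call was lost without spleen Id3+ eTR of mouse 84 (adjusted p = 0.0879) or 87 (0.0505), without lymph node Id3+ eTR of mouse 84 (0.165) or 87 (0.058), and without the 3 spleen libraries (0.103). Nrp1 in Id3+ eTR was 0.39 ± 0.09 higher in lymph node without overlap (adjusted p = 0.0711), and limma-voom (0.0344) and DESeq2 (0.00311) called it. In Id3+ cTR 0 of 6 were called (0.00804% of all genes) and in Id3- eTR 0 of 6 (0.305%). The erythroid and platelet markers given above were higher in spleen than in lymph node libraries of every population, and their part in these values was not tested.

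The population differences of the 6 genes were also compared between the tissues. Of the 18 interactions, 0 were called with edgeR, 3 had an unadjusted p under 0.05, and the adjusted p ran from 0.36 to 0.992. Over all genes the share called was 0.0241% for Id3- eTR over Id3+ cTR and 0% for the other pairs of populations, so few differences of this kind passed the test anywhere. DESeq2 called 1 of the 18, that of Capg given above.

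Spread between the libraries of a group, each from another mouse, set how firmly each gene could be read. Pooled over the 6 groups, the SD within a group was 6.92% of the mean for Nrp1 and 9.50% for Capg. It was 12.4% for Foxp3 and Ikzf2, 15.8% for Gpr83 and 23.6% for Ikzf4. Counting error alone would give 2.45% to 5.42%, so it is the smaller part for all 6. The highest group mean was 1.90 times the lowest for Ikzf4, the gene of the widest spread, against 3.01 for Nrp1 and 3.92 for Gpr83. Per kilobase of annotated exon, the mean level over the 18 libraries was 176 CPM for Capg, 63.4 for Ikzf2, 60.3 for Foxp3, 40.3 for Gpr83, 40.0 for Nrp1 and 24.4 for Ikzf4. These rank at the 98.6th percentile of 12028 genes for Capg and at the 71.3rd for Ikzf4.

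**Figure D4:**
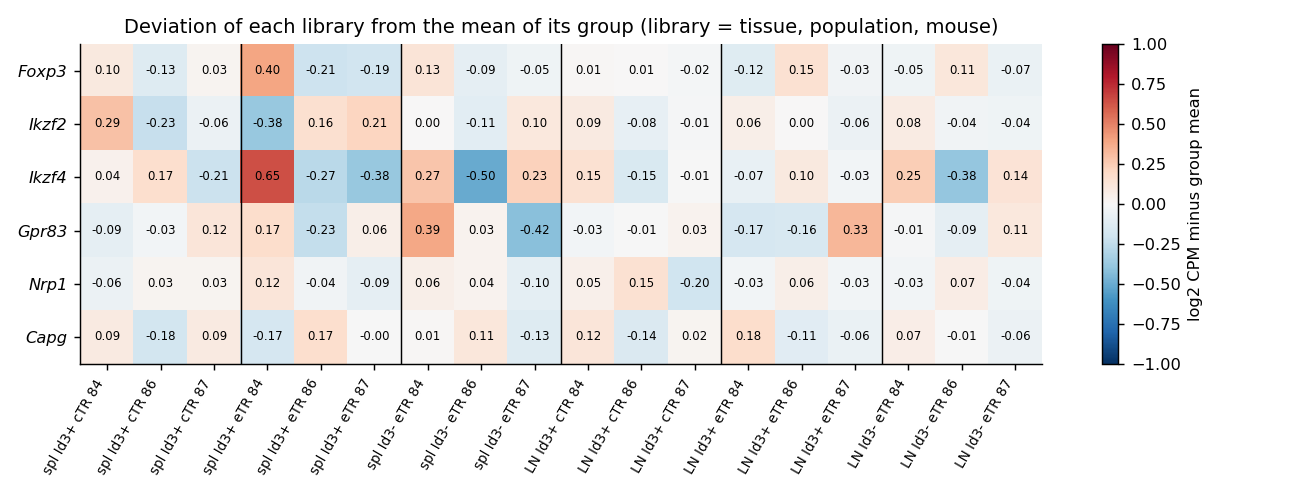
Deviation of each library from its group mean, in log2 CPM, for the 6 genes. Colour gives the sign and size, and each column is 1 library. The spleen Id3+ eTR library of mouse 84 has the strongest colours, at 0.65 for Ikzf4, 0.40 for Foxp3 and -0.38 for Ikzf2.

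In order of level, neighbouring groups mostly overlapped. For Nrp1 the order rose from spleen and lymph node Id3+ cTR (199 and 214 CPM) over spleen Id3- eTR, lymph node Id3- eTR and spleen Id3+ eTR (435, 440.5 and 457 CPM) to lymph node Id3+ eTR (599.9 CPM), and the ranges broke apart between those 3 tiers. For Gpr83 the Id3- eTR groups (81.5 and 86.5 CPM) were apart from all others, and spleen Id3+ cTR (319 CPM) was apart from the rest at the top. Ikzf2 broke below lymph node Id3+ eTR (817 CPM) and again above it, and Ikzf4 broke once, between lymph node Id3- eTR (118 CPM) and lymph node Id3+ cTR (162 CPM). Capg broke below lymph node Id3+ eTR (484 CPM) and below lymph node Id3- eTR (624 CPM).

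The pattern of each gene over the 6 groups was set beside 6706 other genes whose log2 CPM averaged 5 or more, as a description. The groups share mice and scaling, and with 6 group means high coefficients are common. Closest to Ikzf2 were the integrin chain Itgav (Pearson r = 0.9991 over group means and 0.852 over the 18 libraries), the kinase Eif2ak2 (0.9968 and 0.841) and Arhgap31 (0.9957 and 0.821). Gpr83 was closest to the lipid kinase Pip4k2a (0.9974 and 0.865), the survival factor Bcl2 (0.9911 and 0.958) and the ribosomal protein gene Rpl22 (0.9908 and 0.742). Nrp1 was closest to the calcium channel Orai1 (0.9922 and 0.868), the NF-kB subunit Relb (0.9911 and 0.708) and the integrin chain Itgb1 (0.9884 and 0.971). For Capg (Naa30, Ercc6 and Commd10) and Foxp3 (Ppm1a, Acat2 and Pigm) the coefficients over 18 libraries were at most 0.559 and 0.159, and for Ikzf4 (Gcsh, Fundc1 and Rcn2) at most 0.649.

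Other genes of the TR signature rose more often than they fell. Of 22 such genes tested, 13 were higher and 3 lower in Id3- eTR than in Id3+ cTR in spleen, and 15 were higher and 1 lower in lymph node. Their median difference was 0.75 and 1.11, against 0.00 over all genes tested. Of all genes, 12.3% were called in this comparison in spleen and 12.9% in lymph node. Tigit, an inhibitory receptor, had group means of 3.45 and 268 CPM in spleen Id3+ cTR and Id3- eTR, and of 2.22 and 286 in lymph node. Itgae, the integrin chain CD103, rose by 3.48 ± 0.54 in the spleen (adjusted p = 0.000284) and by 5.01 ± 0.49 in the lymph node (adjusted p = 2.4e-06). Ebi3, a cytokine subunit, rose by 4.96 ± 0.51 and 3.11 ± 0.43 (adjusted p = 4.93e-06 and 8.47e-05). Penk, with the values above, is also on this list.

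Like Gpr83, Ecm1 fell in both tissues, at -2.19 ± 0.15 in the spleen (adjusted p = 4.1e-08) and -1.39 ± 0.14 in the lymph node (adjusted p = 3.5e-06). The surface protein Lrrc32, which binds latent TGF-beta, fell in spleen, at -1.60 ± 0.28 (adjusted p = 0.000782) and differed by -0.64 ± 0.26 in lymph node (adjusted p = 0.126). The interleukin 2 receptor chain Il2ra fell in spleen, at -0.85 ± 0.16 (adjusted p = 0.00168) and differed by -0.08 ± 0.16 in lymph node (adjusted p = 0.839). Between Id3+ eTR and Id3+ cTR, 4.32% of all genes were called in spleen and 5.66% in lymph node. Of the 22, 10 were higher and 1 lower in spleen, and 13 were higher and 1 lower in lymph node. Without the 3 spleen libraries that stood apart, 4 rather than 11 were called in spleen. With only the groups compared, also 4 were called in spleen, and 145 rather than 538 over all genes. Between the effector populations 3.28% of all genes were called in spleen and 2.62% in lymph node. Of the 22, 4 were higher and 4 lower in spleen, and 6 were higher and 1 lower in lymph node. In lymph node, 1 to 4 rather than 7 were called with any 1 of its 6 effector libraries left out. Over all genes, 192 to 235 rather than 326 were called there.

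**Figure D5:**
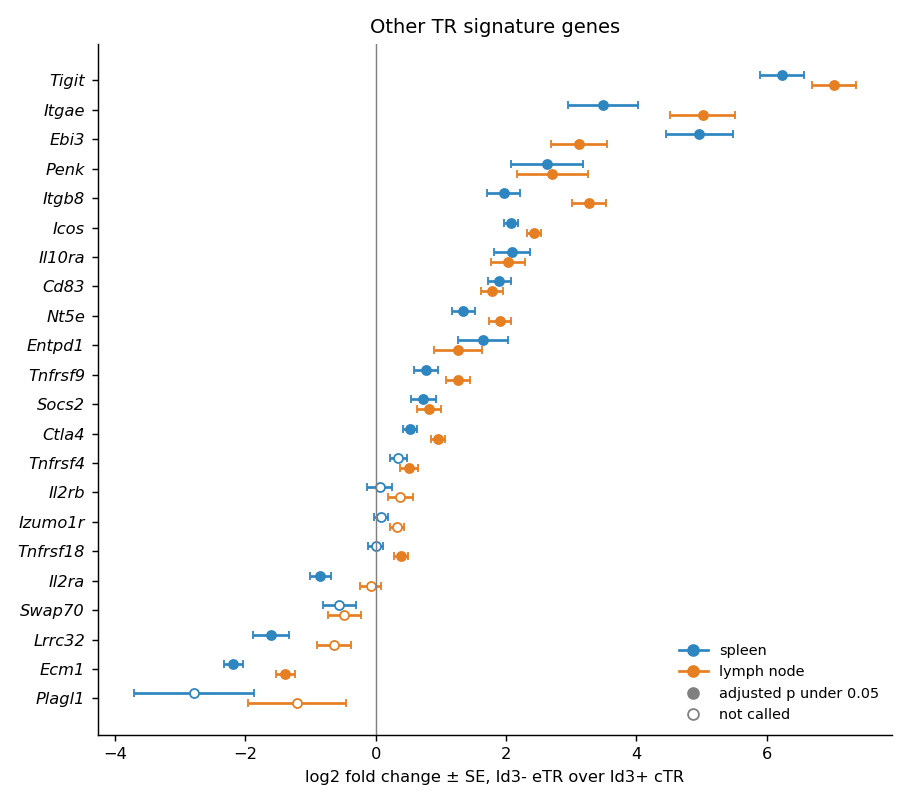
Log2 difference of Id3- eTR over Id3+ cTR in edgeR for the 22 other TR signature genes, in spleen and lymph node, with bars of 1 standard error. Filled points passed the adjusted p threshold of 0.05. Tigit lies farthest to the right in both tissues, and Ecm1 lies to the left of 0 in both.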

How the data were processed

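RNA from 18 libraries was measured by SMART-Seq v4 and a modified Nextera XT protocol, per the labels' protocols. The authors deposited whole-number counts for 37991 genes, not normalized, and a table of normalized signal for 14011 genes. The deposited signal was the count multiplied by a factor of the library, within 0.1%, for 99.982% of values in 13883 genes matched by symbol, and only counts were analysed. HTSeq 0.4.1, Bowtie, TopHat, SAMtools, Picard and FastQC are named in the submitters' processing notes. Genome build and strand setting are not given in the sources used here. GENCODE M21 gave symbols for 32919 identifiers and exon lengths, and 0.891% of counts had no symbol.

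After filterByExpr (minimum count 10) and TMM scaling, all 18 libraries were fitted with 6 group means (12 residual degrees of freedom) by the robust quasi-likelihood F test of edgeR 4.0.16 in R 4.3.3, two-sided, with Benjamini-Hochberg adjustment over 12445 genes. The common biological coefficient of variation was 0.294. Errors of log2 differences are standard errors, intervals are at 95%, and log2 CPM used a prior count of 2. P-values measure spread between the 3 mice.

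Alternatives were RLE size factors, no filter, DESeq2 1.42.0, limma-voom (limma 3.58.1), the mouse as a block, the compared groups alone, each library left out, and the 3 spleen libraries left out together. The average of the tissues was added after the values were seen. The same animals stand in every group, so mouse numbers pair the libraries, yet deviations of same-mouse libraries correlated at -0.0309 to 0.0798 over 45 pairs (median 0.0188).

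The members, gene lists and alternatives were chosen with earlier results of these data known. Named genes are the 6 members, list genes called in a population comparison, and the 3 genes most like each member. Values were given for up to 4 genes per list, those called for Id3- eTR over Id3+ cTR in each tissue and largest in mean change. Those of Ikzf1, Ikzf3, Sema4a, Flii, Plxnd1, Ecm1, Lrrc32, Il2ra, Nrp2, Vegfa and Pcsk1 were chosen after they were seen. For 1 gene of the neuropilin list the result is not reported here.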

Additional observations from a re-analysis of the deposited data

How the results depend on the processing

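The counts of the 6 genes called kept within 1.5 times their value under RLE size factors, no filter and the mouse as a replicate block. With the replicate block 4, 1 and 2 of 6 were called in spleen and 4, 2 and 2 in lymph node, for Id3- eTR over Id3+ cTR, Id3+ eTR over Id3+ cTR and Id3- eTR over Id3+ eTR, so pairing by mouse changed no count. With only the groups compared, Id3- eTR over Id3+ eTR in spleen gave 1 and lymph node over spleen in Id3+ eTR gave 0. Without the 3 spleen libraries that stood apart, Id3+ eTR over Id3+ cTR in spleen gave 2 and lymph node over spleen in Id3+ eTR gave 0. Limma-voom gave 2 for lymph node over spleen in Id3+ eTR. DESeq2 gave 4 for Id3- eTR over Id3+ eTR in spleen, 2 for lymph node over spleen in Id3+ eTR and 1 for the interaction of Id3+ eTR over Id3+ cTR. With single libraries left out, the counts ran from 3 to 4 for Id3- eTR over Id3+ cTR in spleen and stayed at 4 in lymph node. They ran from 1 to 2 and from 2 to 3 for Id3+ eTR over Id3+ cTR, from 2 to 4 and from 1 to 2 for Id3- eTR over Id3+ eTR (spleen, then lymph node), and from 0 to 1 for lymph node over spleen in Id3+ eTR. The other tissue comparisons and the interactions stayed at 0 there. Over all genes, Id3+ eTR over Id3+ cTR in spleen gave 538 calls, and 69 without the 3 libraries, 145 with only the groups compared, 268 with limma-voom and 1025 with DESeq2. Id3- eTR over Id3+ cTR in spleen gave 1526, and 730 without the 3 libraries. Id3- eTR over Id3+ eTR gave 408 in spleen (171 with only the groups compared, 752 with DESeq2) and 326 in lymph node (566 with DESeq2, 192 to 235 with 1 library left out). Results for single genes were counted once per gene, comparison and alternative. Of these, 1314 stayed on their side of the threshold, 31 lost a call, 17 gained one, and none that was called changed direction. Many of the 1314 were not called in the main fit and so could not lose a call. The alternatives also share libraries. The cause of these changes was not tested.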
